A study of Mus musculus with 11 samples.

Results

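The 48 genes described here encode the lysosomal proton pump, lysosomal hydrolases and their activators, and 5 proteins of the lysosomal membrane. They also encode 3 of the MiT/TFE transcription factors, Tfeb, Tfe3 and Mitf. A further factor of this family, Tfec, is not among the 48 and is counted in the list of other lysosomal genes below. The 48 members were chosen by name. All 48 are among the 12932 genes of the deposited table and among the 12889 genes tested. RNA was sequenced from alveolar macrophages (AMs), the resident macrophages of the airspace, of 9-week-old mice. Control mAMs came from CD11cCre- Rxrabfl/fl mice, in which Rxra and Rxrb carry loxP sites and no Cre is present (mAM_WT, 4 libraries). RXR-deficient mAMs (mAM_KO, 4 libraries) and RXR-deficient ImmAMs (ImmAM_KO, 3 libraries, replicates 2 to 4) came from CD11cCre+ Rxrabfl/fl mice, so that every group carries the floxed alleles. The Cd11c promoter that drives Cre is also active in other CD11c+ cells, such as dendritic cells. Mature AMs (mAMs) were sorted as CD11b-/SiglecF+ and immature AMs (ImmAMs) as CD11b+/SiglecF+. The labels call the libraries individual biological replicates, and the study's figure legends count them as mice. Whether mAMs and ImmAMs of the same number come from the same mouse is not given in the sources used here. No library of control ImmAMs was used here, so maturity and genotype cannot be told apart in ImmAMs against control mAMs, while ImmAMs and RXR-deficient mAMs share a genotype and differ in the sort gate.

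A lysosome is acidified by the V-ATPase, a rotary pump whose V1 sector splits ATP in the cytosol and whose membrane-bound V0 sector carries protons into the lumen. Hydrolases active at this pH break down glycans, lipids and proteins, and in AMs they also degrade the surfactant phospholipids and proteins taken up from the airspace. MiT/TFE factors are basic helix-loop-helix proteins that bind an E-box-type element near many lysosomal genes. They are controlled largely by phosphorylation and movement between the cytosol and the nucleus, which RNA levels do not show.

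Between 16659960 and 37873532 reads were counted in a library, and levels are given in CPM, reads scaled to the TMM-adjusted size of each library. The 10 libraries that the study used (without mAM_KO replicate 4) entered the tests, and replicate 4 is printed beside the others. Reads of the deleted genes remained, at 310.2 to 380 CPM in control mAMs, 334 to 419 in RXR-deficient mAMs and 283 to 305 in ImmAMs for Rxra, and at 51.4 to 72.1, 39.3 to 55.3 and 31.9 to 35.2 CPM for Rxrb. Counts of a whole gene include exons outside the floxed part, so these values do not check the deletion. From separate mRNA measurements, the paper reports that both genes were deleted efficiently in mAMs and ImmAMs of this mouse line. The ImmAM libraries stood apart in markers: Itgam, which encodes CD11b, lay between 168.2 and 174 CPM in ImmAMs and between 3.52 and 9.95 CPM in all mAM libraries, and Siglecf lay at 19.3 to 19.7 against 198 to 264 CPM. All 10 listed AM markers were in the table, with summed levels of 20613 to 26903, 24818 to 31351 and 23582 to 25382 CPM in the order control mAMs, RXR-deficient mAMs and ImmAMs. Most of each sum was Chil3 (13182 to 23887 CPM), and single markers differed. Marco lay at 309.99 to 377, 281 to 286 and 10.9 to 13.8 CPM, Ear2 at 1949.5 to 2309, 1776 to 2124 and 74.2 to 83.5 CPM, Krt79 at 594 to 759, 116 to 402 and 5.96 to 7.01 CPM, and Fabp4 at 126 to 203, 42.7 to 79.9 and 25.7 to 32.1 CPM, whereas Pparg in ImmAMs (215 to 219 CPM) lay within the mAM range. Of 9 markers of monocytes and interstitial macrophages, 8 were in the table. Their sums were 16.7 to 22.3, 24.0 to 45.9 and 542 to 569 CPM in the same order. Itgam, the marker of the sort gate, is part of these sums. Vcan lay at 1.76 to 3.23 CPM in ImmAMs and 1.89 to 3.16 CPM in control mAMs. The other markers of this list were higher in every ImmAM library than in any mAM library. The part of these markers in the ImmAM results below was not tested. In RNA from sorted populations, a different mix of cells and a different level per cell cannot be told apart.

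Promoter windows of RefSeq (GRCm38.p6, 250 bases before to 50 after each annotated start) were matched by symbol to 41 of the 48 members and searched for the E-box CACGTG, the core of the element that MiT/TFE factors bind, and for the extended form TCACGTGA, which contains it. Both read the same on either strand. The E-box was found in 13 of the 41 members (31.7%) and in 12.1% of the 9447 matched genes of the table. The extended form was found in 6 members (14.6%) and in 2.23% of the table's genes. A match describes letters in a window and is not a measured binding site. Lamp1 held 4 E-boxes within 70 bases before its start, more than any other member, and the stretch is shown whole, with E-boxes in capitals (chr8:13159091-13159160, plus strand).
Lamp1: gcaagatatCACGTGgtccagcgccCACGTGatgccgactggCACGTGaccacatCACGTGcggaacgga
Windows of 30 bases are shown for the 6 other E-box members whose level changed in ImmAMs against control mAMs, in the order Sgsh (chr11:119355522-119355551, minus strand), Gla (chrX:134601182-134601211, minus), Gaa (chr11:119267811-119267840, plus), Atp6v0b (chr4:117887339-117887368, minus), Atp6v0d1 (chr8:105566050-105566079, minus) and Atp6v0e (chr17:26676387-26676416, plus). Gla holds a further E-box, with its first base at -227 from the start, outside the stretch shown.
Sgsh: gggcctgccgtgCACGTGaccgtggggagc
Gla: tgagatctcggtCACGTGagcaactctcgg
Gaa: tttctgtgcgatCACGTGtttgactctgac
Atp6v0b: ggtCACGTGgggtcggcgcatCACGTGcgc
Atp6v0d1: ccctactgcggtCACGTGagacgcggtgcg
Atp6v0e: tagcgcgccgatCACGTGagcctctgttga
Of the 13 E-box members, 4 rose in ImmAMs against control mAMs (Lamp1, Sgsh, Gla and Gaa), 3 fell (Atp6v0b, Atp6v0d1 and Atp6v0e) and 6 were not called, among them the channel gene Mcoln1 and the pump gene Atp6v1a. Of the 28 matched members without an E-box, 8 rose, 9 fell and 11 were not called. Over all genes tested, 48.1% were called in this comparison, 22.8% higher and 25.3% lower. Whether the E-box goes with the calls was not tested. The windows of Tfeb, Tfe3 and Mitf themselves held no E-box.

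In RXR-deficient mAMs against control mAMs, the comparison that asks what loss of RXRs changes in mature cells, 1 member was called. Galns (ENSMUSG00000015027, chr8:122578242-122611463, GRCm38, minus strand), which encodes the sulfatase of keratan sulfate and chondroitin-6-sulfate breakdown, fell. Over all genes tested, 4.84% were called (2.25% higher and 2.59% lower), so 1 of 48 members is below that background. At an unadjusted p under 0.05, 10 of the 48 members passed, as did 23.6% of all genes tested. The median log2 fold change was 0.02 over the members and -0.0019 over all genes.

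Galns stood at 86.6, 87.9, 85.4 and 90.4 CPM in control mAMs, at 68.9, 76.5 and 59.4 CPM in RXR-deficient mAMs and 73.2 CPM in their replicate 4, and at 41.3, 42.1 and 38.5 CPM in ImmAMs. The 3 groups did not overlap, replicate 4 included. The log2 fold change in RXR-deficient mAMs was -0.37 ± 0.09 (SE, n = 3 against 4; adjusted p = 0.033). When each library was left out in turn, this call was lost 6 of 10 times (mAM_WT replicates 2, 3 and 4, mAM_KO replicates 1 and 3, ImmAM_KO replicate 2; adjusted p between 0.051 and 0.13) and after correction for base composition (log2 fold change -0.24, adjusted p = 0.11).

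The next members by adjusted p, all short of the threshold, were 2 of the MiT/TFE factors, the fucosidase gene Fuca1 and the thioesterase gene Ppt1, with adjusted p between 0.056 and 0.064. DESeq2 on the recovered reads called 5 of the 48 members, these 4 and Galns, and 10.5% of all genes tested. No subunit of the proton pump was called by limma, with log2 fold changes from -0.16 to 0.24 over the 16 subunits.

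In RXR-deficient ImmAMs against control mAMs, 28 of the 48 members were called (58.3%, against 48.1% of all genes tested). Of these, 12 were higher, where 22.8% of all genes were, and 16 were lower, where 25.3% were. The median log2 fold change was 0.03 over the members and -0.0025 over all genes. Quantile normalization gave 17 higher and 15 lower members and a median of 0.11, with -0.016 over all genes. Most changes were small. Only 5 of the 48 members were called and differed by 1.5-fold or more, where 26.7% of all genes tested did: Sgsh, Lamp1 and Mitf were higher, and Galns and Atp6v1d were lower.

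The V1 sector of the pump was lower in ImmAMs than in control mAMs in 6 of its 8 measured genes and higher in none. Its median log2 fold change was -0.32, beside -0.0025 over all genes, of which 25.3% were called lower. Atp6v1d, which encodes part of the central rotor, moved most. It stood at 99.03, 105, 126 and 94.0 CPM in control mAMs, at 95.5, 119.6, 107 and, in replicate 4, 113 CPM in RXR-deficient mAMs, and at 70.9, 58.7 and 68.0 CPM in ImmAMs. All 3 ImmAM libraries lay below every mAM library (log2 fold change -0.68 ± 0.11, adjusted p = 0.00022, 1.60-fold lower).

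Atp6v1b2 encodes the B2 subunit, which forms the ATP-splitting ring together with subunit A. Its levels were 691, 711, 817 and 636 CPM in control mAMs, 624, 669, 619 and 667 CPM in RXR-deficient mAMs, and 504, 517 and 501 CPM in ImmAMs. The ImmAM libraries were again lowest (log2 fold change -0.49 ± 0.08, adjusted p = 0.00021). Atp6v1a, which encodes the A subunit of the same ring, was not called (0.18 ± 0.09, adjusted p = 0.14).

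Atp6v1h encodes a regulatory subunit at the interface of V1 and V0. It was measured at 94.3, 94.8, 105 and 74.0 CPM in control mAMs, 88.5, 84.4, 92.2 and 88.2 CPM in RXR-deficient mAMs, and 69.95, 67.7 and 74.7 CPM in ImmAMs. Control replicate 4 overlapped the ImmAM libraries, and the gene still passed the test (-0.37 ± 0.10, adjusted p = 0.0094). Atp6v1e1, a gene of the peripheral stalks, read 249, 241, 251 and 218 CPM in control mAMs, 222, 231, 214 and 256 CPM in RXR-deficient mAMs, and 189, 189.6 and 192 CPM in ImmAMs (-0.33 ± 0.06, adjusted p = 0.00085), with no overlap between ImmAMs and mAMs. The other called genes of the sector were Atp6v1f (-0.31 ± 0.09) and Atp6v1g1 (-0.23 ± 0.07). Their calls were lost without ImmAM_KO replicate 2 or 4 for Atp6v1f (adjusted p = 0.062 and 0.052) and without ImmAM_KO replicate 3 for Atp6v1g1 (adjusted p = 0.060). Of the 60-base windows of these transcripts, 7.92% and 16.5% also occur in other genes, so their reads are less certain.

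The V0 sector was mixed. Of its 6 measured genes, 2 were higher in ImmAMs than in control mAMs, 3 were lower and 1 was not called. Over all genes tested, 22.8% were higher and 25.3% lower. Atp6v0c, which encodes the proteolipid of the proton-carrying ring and was the pump gene of highest level per transcript length (566 CPM per kb in control mAMs), was higher. Its libraries read 542, 583, 547 and 569 CPM in control mAMs, 519, 471, 578 and 649.7 CPM in RXR-deficient mAMs, and 705, 737 and 746 CPM in ImmAMs. Every ImmAM library was above every mAM library (0.38 ± 0.07, adjusted p = 0.00072), while 10.1% of its windows also occur in other genes. Atp6v0a1 encodes the a1 isoform of the subunit that holds the proton half-channels. It was at 156, 139, 152 and 153 CPM in control mAMs, 166, 145, 167 and 176 CPM in RXR-deficient mAMs, and 193, 193 and 180.3 CPM in ImmAMs (0.33 ± 0.07, adjusted p = 0.0017), again without overlap.

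Among the V0 genes that fell, Atp6v0e, a small membrane subunit, gave 146, 174, 166 and 161 CPM in control mAMs, 140.3, 155, 139 and 168 CPM in RXR-deficient mAMs, and 114, 122 and 123 CPM in ImmAMs (-0.43 ± 0.07, adjusted p = 0.00032). Atp6v0b, a further ring proteolipid, was lower as well (-0.28 ± 0.08, adjusted p = 0.0095), a call lost without ImmAM_KO replicate 2 (adjusted p = 0.051). Among the 5 V0 genes with a matched promoter window, these 2 genes and Atp6v0d1 hold an E-box, in the stretches printed above. Atp6v0d2 had no matched window. Whether the E-box goes with the falls was not tested.

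The d subunit couples the rotor to the ring and has 2 isoforms, the widely expressed Atp6v0d1 and Atp6v0d2, which is known for its high level in osteoclasts. Atp6v0d1 read 240.0, 262, 279 and 247 CPM in control mAMs, 236, 242, 251 and 275 CPM in RXR-deficient mAMs, and 196, 199 and 196 CPM in ImmAMs. All ImmAM libraries were below all mAM libraries (-0.38 ± 0.06, adjusted p = 0.00028). Atp6v0d2 read 1351, 1246, 1287 and 1009 CPM in control mAMs, 1456, 1403, 1463 and 1169 CPM in RXR-deficient mAMs, and 1129, 1020.4 and 1153 CPM in ImmAMs. It was not called against control mAMs (-0.15 ± 0.09, adjusted p = 0.22), where control replicate 4 overlapped the ImmAM libraries, but was lower in ImmAMs than in RXR-deficient mAMs (-0.39 ± 0.10, adjusted p = 0.0073). Against control mAMs it was called without control replicate 4 (-0.23, adjusted p = 0.0094) and after correction for base composition (-0.23, adjusted p = 0.0038). Per transcript length, Atp6v0d2 was 2.62 to 3.61 times Atp6v0d1 in control mAMs, 3.73 to 3.96 times in RXR-deficient replicates 1 to 3 and 3.29 to 3.77 times in ImmAMs. Replicates 1 to 3 lay above all controls, replicate 4 (2.73 times) lay within them, and ImmAMs overlapped both groups.

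**Figure D1:**
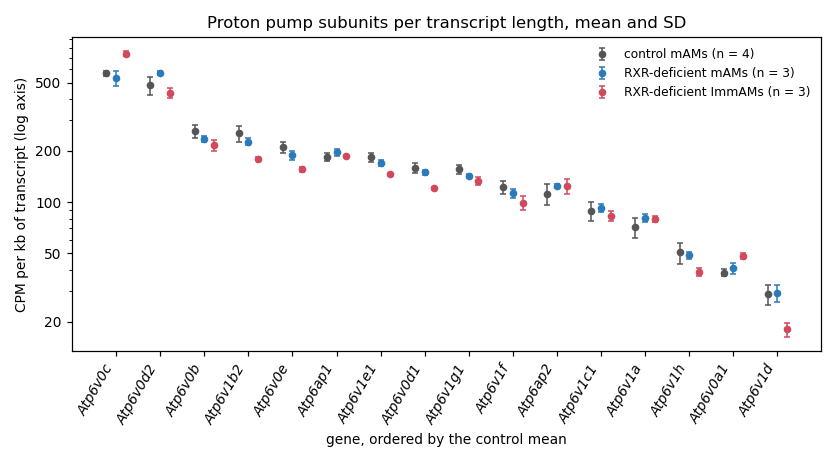
Levels of the 16 pump subunits in CPM per kb of transcript on a log axis, with points and bars for the mean and SD of control mAMs (n = 4), RXR-deficient mAMs (n = 3) and RXR-deficient ImmAMs (n = 3). Control means range from 28.9 CPM per kb for Atp6v1d to 566 for Atp6v0c, and the ImmAM point of Atp6v0c is the highest of the plot.

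**Figure D2:**
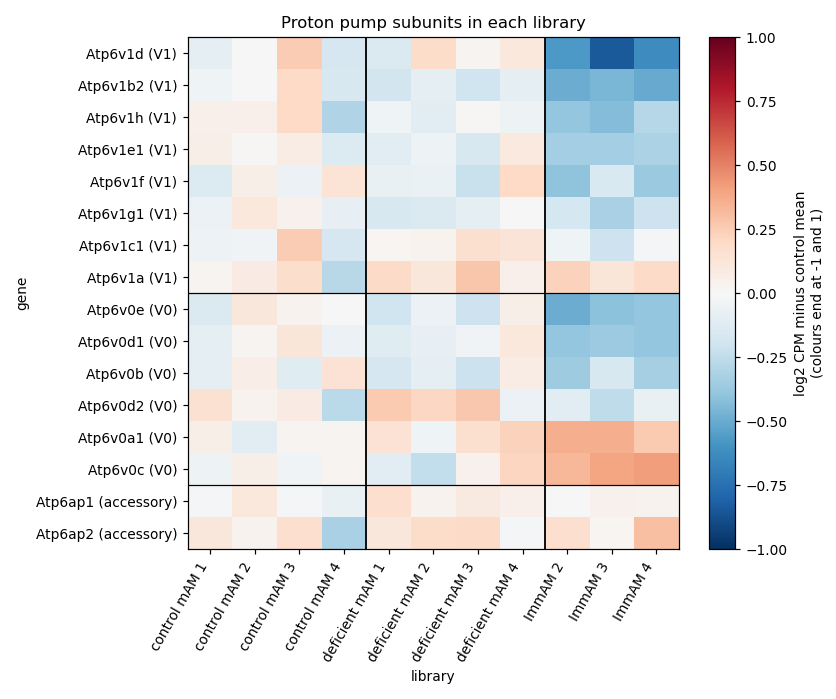
Log2 CPM of each pump subunit in each of the 11 libraries (columns) minus the mean of the 4 control libraries, in colours that end at -1 and 1, with V1, V0 and accessory subunits in blocks. In the 3 ImmAM columns 6 of 8 V1 rows are called lower, and Atp6v0c and Atp6v0a1 are the V0 rows called higher.

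The accessory subunits Atp6ap1 and Atp6ap2, which act in assembly of the pump, were called in no comparison, with log2 fold changes in ImmAMs against control mAMs of 0.02 ± 0.06 and 0.16 ± 0.11. Taking the 16 pump genes as a whole, 2 were higher and 9 lower in ImmAMs against control mAMs, where 22.8% and 25.3% of all genes tested were.

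Of the 5 membrane proteins, Lamp1 was higher and Scarb2 lower in ImmAMs against control mAMs (40% called, where 48.1% of all genes tested were). Lamp1 (ENSMUSG00000031447, chr8:13159161-13175338, GRCm38, plus strand) encodes a major glycoprotein of the lysosomal membrane. Its libraries read 1199, 1300.2, 1247 and 1134 CPM in control mAMs, 1331, 1267, 1523 and 1358 CPM in RXR-deficient mAMs, and 1974, 1982 and 2039 CPM in ImmAMs. ImmAMs lay far above both mAM groups (0.71 ± 0.08, adjusted p = 5.6e-06, 1.64-fold), whereas RXR-deficient and control mAMs overlapped (0.17 ± 0.08, adjusted p = 0.20). Exons of Grtp1 on the opposite strand cover 249 bases of the Lamp1 exons.

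Scarb2 encodes LIMP-2, the receptor that carries beta-glucocerebrosidase to lysosomes. It was at 544, 568, 559 and 485 CPM in control mAMs, 563, 563, 569.8 and 542 CPM in RXR-deficient mAMs, and 419, 413 and 414 CPM in ImmAMs, which were lowest without overlap (-0.37 ± 0.06, adjusted p = 0.00032). Lamp2, the calcium channel gene Mcoln1 and Cln3 were not called, at log2 fold changes of 0.23 ± 0.13, -0.01 ± 0.10 and -0.09 ± 0.10. Lamp2 has the lowest GC content of the members (40.9%), and in control mAMs it ranged from 362 CPM in replicate 4 to 578 CPM in replicate 3.

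Of the 24 hydrolases and activators, 7 were higher, 6 were lower and 11 were not called in ImmAMs against control mAMs. That is 54.2% called, against 48.1% of all genes tested, of which 22.8% were higher and 25.3% lower. The split is therefore near the background. Among the 14 glycan hydrolases, 3 were higher, 5 were lower and 6 were not called (57.1% called). Sgsh (ENSMUSG00000005043, chr11:119343425-119355536, GRCm38, minus strand) encodes the sulfamidase of heparan sulfate breakdown and had the largest change of all members. It was the member of lowest level in mAMs, at 0.674, 1.15, 0.769 and 1.10 CPM in control mAMs and 0.900, 1.25, 2.47 and 1.17 CPM in RXR-deficient mAMs, and stood at 14.4, 12.5 and 14.5 CPM in ImmAMs. The mAM libraries in the test held 19 to 44 reads each and the ImmAM libraries 241 to 276 reads. All ImmAM libraries were above all mAM libraries (3.94 ± 0.35, adjusted p = 1.1e-06, 15.3-fold). With a pseudocount of 1 CPM the fitted rise was 2.95 (7.73-fold), since the mAM levels are near 1 CPM. RXR-deficient and control mAMs overlapped (0.64 ± 0.35, adjusted p = 0.29). Card14, on the opposite strand and not in the table, overlaps 21.6% of the Sgsh exon bases. The libraries were made with a directional kit, but whether strand was used in counting is not given in the sources used here. Opposite-strand transcripts also overlap exons of Arsb (32.3% of its exon bases for the largest overlap), Arsa (18.8%), Hexa (12.8%), Atp6v0b (11.8%), Cln3 (7.65%) and, at under 4%, Atp6v1e1, Atp6v1h, Galc, Idua and Ppt1, and Tmppe on the same strand overlaps 5.49% of Glb1, so reads of these stretches are less certain.

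Galns changed in the opposite direction. Its ImmAM libraries, given above, were below all control mAMs (-1.11 ± 0.09, adjusted p = 2.8e-07, 2.16-fold lower) and also below RXR-deficient mAMs (-0.74 ± 0.09, adjusted p = 3.2e-05). Fuca1, which removes fucose from glycoproteins, read 168, 183, 175 and 199 CPM in control mAMs, 152, 160.4, 120.5 and 191 CPM in RXR-deficient mAMs, and 121, 131 and 118 CPM in ImmAMs (-0.56 ± 0.10, adjusted p = 0.00037). RXR-deficient replicate 3 lay at the level of ImmAMs and replicate 4 within the control range.

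Arsb, the sulfatase of dermatan sulfate and chondroitin-4-sulfate, was at 59.7, 63.4, 60.9 and 64.1 CPM in control mAMs, 72.7, 60.7, 57.9 and 65.2 CPM in RXR-deficient mAMs, and 42.7, 47.2 and 45.9 CPM in ImmAMs (-0.46 ± 0.09, adjusted p = 0.00073), again without overlap between ImmAMs and mAMs. The beta-glucuronidase gene Gusb (-0.40 ± 0.06) and the sialidase gene Neu1 (-0.33 ± 0.08) fell too. The genes that rose besides Sgsh were Hexa, the alpha subunit of beta-hexosaminidase (0.41 ± 0.07), and Gaa, which splits glycogen (0.30 ± 0.08). Idua, Ids, Glb1, Manba and Man2b1 were not called, with log2 fold changes between 0.03 and 0.13. Naglu, like Sgsh an enzyme of heparan sulfate breakdown, was close to the threshold (0.25 ± 0.10, adjusted p = 0.057) and was called without ImmAM_KO replicate 4 (adjusted p = 0.035), without control replicate 4 (adjusted p = 0.025) and by edgeR and DESeq2 (adjusted p = 0.042 and 0.028).

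The lipid hydrolases and activators included 3 higher and 1 lower gene among 8 in ImmAMs against control mAMs. That is 50% called, near the 48.1% of all genes tested, of which 22.8% were higher and 25.3% lower. Pla2g15, the lysosomal phospholipase A2, whose loss in mice is known to lead to phospholipid storage in AMs, was the gene that fell. It read 646, 749.7, 692 and 713 CPM in control mAMs, 619, 644, 574 and 743 CPM in RXR-deficient mAMs, and 465, 489 and 463 CPM in ImmAMs. ImmAMs were lowest throughout (-0.57 ± 0.07, adjusted p = 1.6e-05, 1.48-fold lower). RXR-deficient mAMs lay between, with replicates 1 to 3 below all controls, but did not pass the test (-0.19 ± 0.07, adjusted p = 0.11).

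Psap (ENSMUSG00000004207, chr10:60277627-60302597, GRCm38, plus strand) encodes the precursor of the saposins, which present sphingolipids to their hydrolases, and had the highest level per transcript length of all members (2898 CPM per kb in control mAMs). It was measured at 6942, 8055, 8252 and 7520.1 CPM in control mAMs, 8114, 7617, 9049 and 10707 CPM in RXR-deficient mAMs, and 11146, 11592 and 11099 CPM in ImmAMs. ImmAMs were above every mAM library (0.56 ± 0.09, adjusted p = 0.00029), and replicate 4 of RXR-deficient mAMs came closest to them. Quantile normalization, which gives genes of the same rank the same value in every library, ended the call (0.01, adjusted p = 0.93).

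Gla, the alpha-galactosidase of globoside breakdown, read 55.1, 59.2, 64.1 and 52.5 CPM in control mAMs, 71.6, 59.4, 65.3 and 66.9 CPM in RXR-deficient mAMs, and 78.0, 85.5 and 89.2 CPM in ImmAMs (0.55 ± 0.09, adjusted p = 0.00027). Galc, the galactosylceramidase, read 69.3, 66.6, 69.1 and 58.5 CPM in control mAMs, 68.5, 68.2, 67.0 and 71.1 CPM in RXR-deficient mAMs, and 86.4, 82.8 and 84.5 CPM in ImmAMs (0.36 ± 0.07, adjusted p = 0.0012). Both genes were higher in each ImmAM library than in any mAM library. The sphingomyelinase gene Smpd1, the ceramidase gene Asah1, the sulfatide sulfatase gene Arsa and the GM2 activator gene Gm2a were not called, with log2 fold changes between 0.02 and 0.10.

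Ppt1, which removes palmitate from proteins, was at 321, 309.7, 319.6 and 289 CPM in control mAMs, 347, 351, 404 and 335 CPM in RXR-deficient mAMs, and 419.8, 395 and 426 CPM in ImmAMs. It was higher in ImmAMs (0.42 ± 0.07, adjusted p = 0.00029), and all RXR-deficient mAM libraries lay above all controls without passing the test (0.24 ± 0.07, adjusted p = 0.064). The peptidase gene Tpp1 was not called (0.14 ± 0.07, adjusted p = 0.11).

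**Figure D3:**
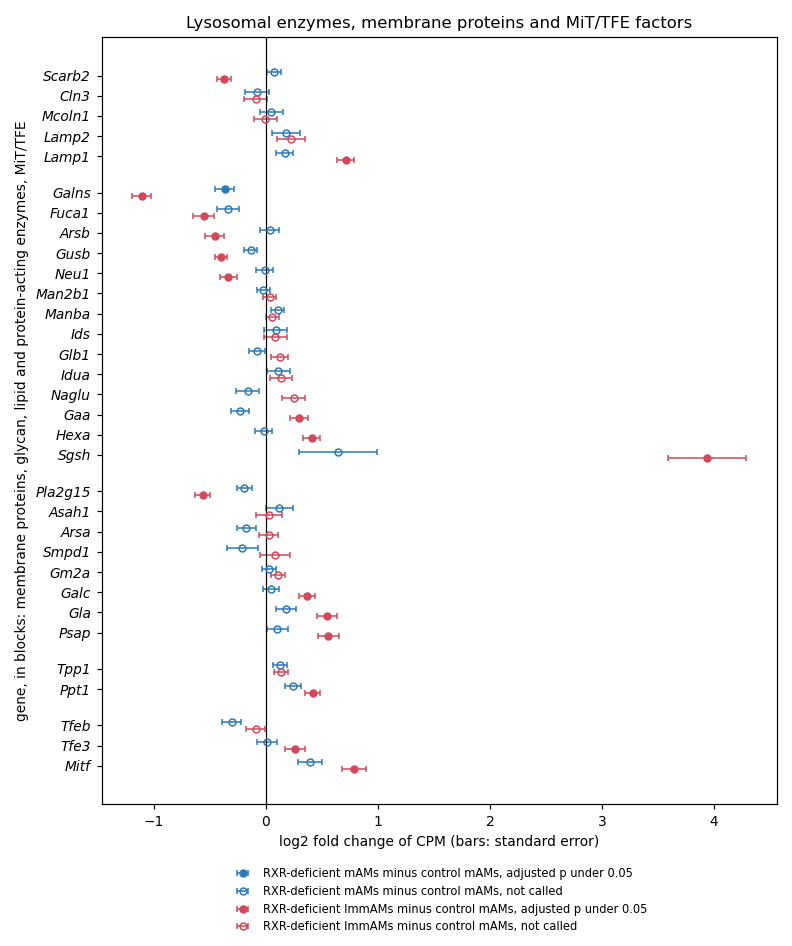
Log2 fold change of CPM (horizontal axis, bars for the standard error) of the 32 members outside the pump, in RXR-deficient mAMs (blue) and RXR-deficient ImmAMs (red) against control mAMs, with filled points for an adjusted p under 0.05. Galns is the blue filled point, and Sgsh at 3.94 lies far to the right of all others.

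**Figure D4:**
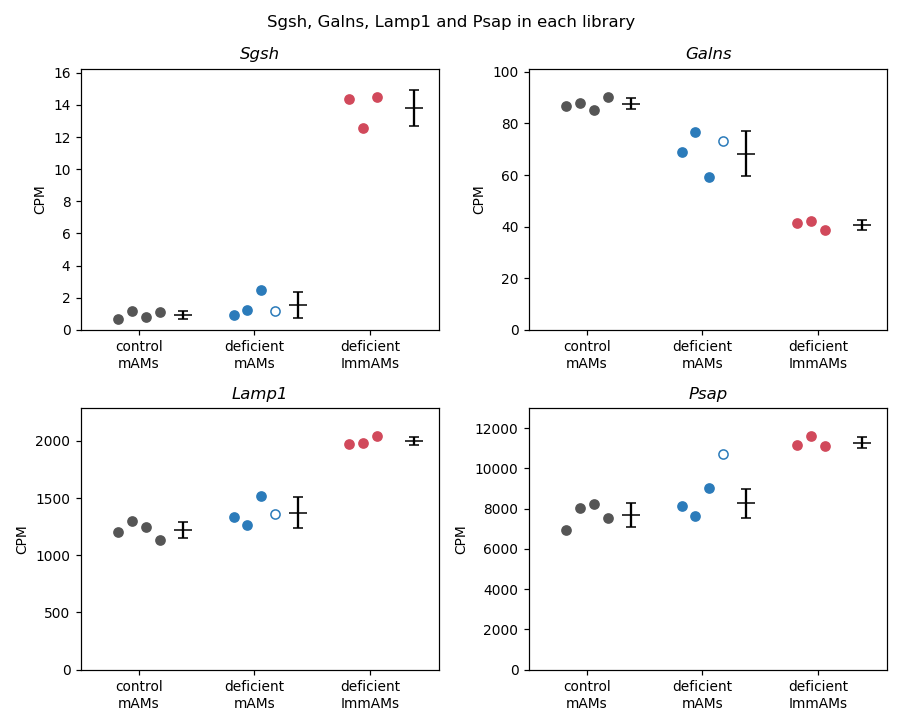
CPM of Sgsh, Galns, Lamp1 and Psap in each library, with the mean and SD of the libraries tested beside the points and an open point for RXR-deficient mAM replicate 4. The 3 ImmAM libraries lie above all mAM libraries for Sgsh, Lamp1 and Psap and below them for Galns.

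Of the 3 MiT/TFE factors among the members, Mitf and Tfe3 rose in ImmAMs against control mAMs and Tfeb was not called. Over all genes tested, 48.1% were called in this comparison, 22.8% higher. Mitf (ENSMUSG00000035158, chr6:97807052-98021349, GRCm38, plus strand) was at 68.6, 68.5, 51.5 and 55.0 CPM in control mAMs, 83.9, 73.1, 81.3 and, in replicate 4, 67.6 CPM in RXR-deficient mAMs, and 104, 97.2 and 112 CPM in ImmAMs. It rose in ImmAMs against control mAMs (0.79 ± 0.11, adjusted p = 5.5e-05, 1.72-fold) and against RXR-deficient mAMs (0.39 ± 0.12, adjusted p = 0.016). RXR-deficient replicates 1 to 3 were above all controls and replicate 4 within them. The difference between these groups was not called (0.39 ± 0.11, adjusted p = 0.056), was called without mAM_KO replicate 2 or mAM_WT replicate 1 (adjusted p = 0.047 and 0.032) and was further from the threshold with replicate 4 (0.33, adjusted p = 0.13).

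Tfeb (chr17:47737030-47792419, GRCm38, plus strand) read 79.7, 88.4, 83.9 and 92.0 CPM in control mAMs, 66.9, 65.4 and 76.4 CPM in RXR-deficient mAMs and 88.1 CPM in their replicate 4, and 75.4, 88.6 and 78.5 CPM in ImmAMs. Replicates 1 to 3 of RXR-deficient mAMs lay below all controls, replicate 4 did not, and ImmAMs overlapped both groups. The difference between RXR-deficient and control mAMs was not called (-0.31 ± 0.08, adjusted p = 0.056), was called without mAM_WT replicate 1 (adjusted p = 0.042), and with replicate 4 had an adjusted p of 0.30. Over the 18 alternatives of the fit it ranged from -0.31 to -0.06, was called in 3 and had adjusted p up to 0.73. ImmAMs differed from control mAMs by -0.09 ± 0.08 (adjusted p = 0.40) and from RXR-deficient mAMs by 0.22 ± 0.09 (adjusted p = 0.075), a difference called without mAM_KO replicate 3 (adjusted p = 0.033) and by DESeq2 (adjusted p = 0.049) and near 0, with the other sign, under the GC correction (-0.02).

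Tfe3 (chrX:7762560-7775202, GRCm38, plus strand) read 70.6, 75.7, 72.1 and 89.8 CPM in control mAMs, 77.9, 80.5, 73.6 and 77.5 CPM in RXR-deficient mAMs, and 88.8, 99.5 and 87.0 CPM in ImmAMs. Control replicate 4 overlapped the ImmAM libraries. The rise in ImmAMs was just past the threshold (0.26 ± 0.09, adjusted p = 0.032), and leaving out ImmAM_KO replicate 2 or 3 or mAM_WT replicate 1, 2 or 3 ended the call (adjusted p between 0.058 and 0.14), as did eBayes without a variance trend (adjusted p = 0.061). Against RXR-deficient mAMs the difference was 0.25 ± 0.10 (adjusted p = 0.061), and it was called in 8 of 18 alternatives and without mAM_WT replicate 4 (adjusted p = 0.018). Per transcript length the 3 factors lay between 24.4 and 37.2 CPM per kb in control mAMs, with Tfeb highest, whereas in ImmAMs Mitf was highest at 49.0 CPM per kb.

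**Figure D5:**
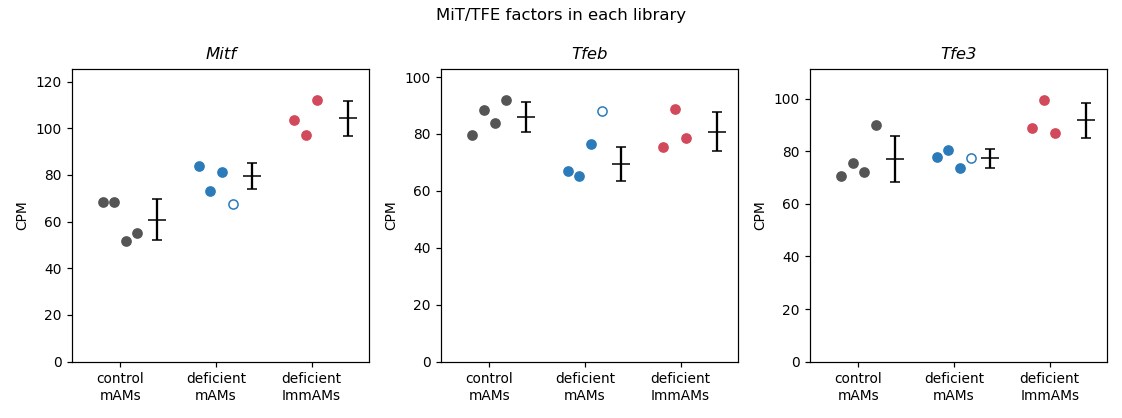
CPM of Mitf, Tfeb and Tfe3 in each library, with the mean and SD of the libraries tested beside the points and an open point for RXR-deficient mAM replicate 4. Mitf in ImmAMs (97.2 to 112 CPM) lies above all mAM libraries, while Tfeb in ImmAMs (75.4 to 88.6 CPM) overlaps the controls.

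In RXR-deficient ImmAMs against RXR-deficient mAMs, which share the genotype, 24 of the 48 members were called, against 37.9% of all genes tested. Of these, 11 were higher (17.7% of all genes) and 13 lower (20.2% of all genes), and 3 of the 48 differed by 1.5-fold or more (21.7% of all genes), Sgsh upwards (3.29 ± 0.37) and Galns and Atp6v1d (-0.70 ± 0.12) downwards. This comparison shares its ImmAM libraries with that against control mAMs, so the lists are not independent. Of the V1 genes, 4 of 8 were lower and none higher. Among them, the call of Atp6v1e1 (adjusted p = 0.020) was lost without any of mAM_KO replicates 1 and 2 and ImmAM_KO replicates 2, 3 and 4 (adjusted p between 0.051 and 0.071), and that of Atp6v1h (adjusted p = 0.033) without mAM_KO replicate 1 or 3 or ImmAM_KO replicate 2 or 3 (between 0.074 and 0.10).

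Of the V0 genes, Atp6v0c (0.48 ± 0.08) and Atp6v0a1 (0.25 ± 0.07) were higher, and Atp6v0d1, Atp6v0d2 and Atp6v0e were lower. The call of Atp6v0a1 was lost without mAM_KO replicate 2 or ImmAM_KO replicate 2 or 3 (adjusted p between 0.070 and 0.089), and that of Atp6v0e without mAM_KO replicate 2 or ImmAM_KO replicate 2 (adjusted p = 0.061 and 0.063). Of the glycan hydrolases, Sgsh, Hexa, Gaa and Naglu were higher and Galns, Gusb, Arsb and Neu1 were lower. The call of Naglu (0.41 ± 0.11, adjusted p = 0.0084) was lost once replicate 4 of RXR-deficient mAMs was added (0.30, adjusted p = 0.090). Of the other groups, Lamp1, Gla, Psap, Galc and Mitf were higher and Scarb2 and Pla2g15 were lower. The call of Mitf was lost without mAM_KO replicate 2 (adjusted p = 0.064) or ImmAM_KO replicate 4 (adjusted p = 0.070). That of Psap was lost under quantile normalization (0.08, adjusted p = 0.51).

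A list of 81 other lysosomal genes that are in the table, of 88 written and without the cathepsins, was tested in the same fit. In RXR-deficient mAMs 3 of the 81 were called (3.70%, against 4.84% of all genes tested). Cd63, a tetraspanin of late endosomes, rose from 30.7 to 57.1 CPM in control mAMs to 94.8 to 177 CPM in all 4 RXR-deficient libraries (1.64 ± 0.20, adjusted p = 0.0017) and lay at 493 to 519 CPM in ImmAMs. Slc38a9, the arginine sensor of the lysosomal membrane, rose (0.42 ± 0.09, adjusted p = 0.024) and Gga1, an adaptor that sorts hydrolase receptors, fell (-0.35 ± 0.09, adjusted p = 0.048), with replicate 4 of RXR-deficient mAMs inside the control range for both (34.5 and 132 CPM).

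In ImmAMs against control mAMs, 48 of the 81 were called (59.3%, against 48.1% of all genes tested), 23 higher and 25 lower (22.8% and 25.3% of all genes), with a median log2 fold change of -0.01. By role, 2 of 7 further pump subunits and assembly factors were called, both lower. Of 20 further glycan and lipid hydrolases 6 were higher and 5 lower, and of 24 further enzymes and membrane proteins 8 were higher and 7 lower. Of 11 genes for delivery of hydrolases 3 were higher and 5 lower, and of 19 genes of nutrient sensing and control of the lysosome 6 were higher and 6 lower. The largest fitted rises among called genes were of genes with few reads in control mAMs. Hpse, the heparanase that cuts heparan sulfate chains, had 3 to 17 reads per library in control mAMs and 646 to 760 in ImmAMs, Plbd1 had 0 to 10 and 23 to 44 reads, and the Rag GTPase gene Rragd had 3 to 49 and 177 to 207 reads.

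The largest falls among called genes of the list were in Sort1, Mlst8 and M6pr. Sort1, which encodes sortilin, a carrier of hydrolases and of prosaposin, lay at 1861 to 1998 CPM in control mAMs, 1721 to 1839 CPM in RXR-deficient mAMs and 459 to 485 CPM in ImmAMs (-2.02 ± 0.06, adjusted p = 7.9e-11). M6pr, the cation-dependent mannose 6-phosphate receptor, lay at 486 to 564 CPM in control mAMs and 262 to 294 CPM in ImmAMs (-0.92 ± 0.08), and Mlst8, a subunit of the mTOR complexes, at 28.5 to 35.8 and 16.5 to 17.0 CPM (-0.93 ± 0.10). In RXR-deficient mAMs none of these 3 was called.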

How the data were processed

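The deposited table holds CPM values of 12932 genes in 11 libraries of sorted AMs. Per the study's methods, the authors trimmed single-end reads of 60 bases with cutadapt, aligned them to the mouse transcriptome (GRCm38), estimated gene counts with RSEM (version 1.3.1 in the submitters' processing notes) and applied TMM scaling in limma. The sources differ on the tissue (digested lung or lavage) and the sequencer. In the CPM values deposited by the authors, each is a whole read number plus 0.5, times a step fixed within the library (100% whole within 0.01), so log2 was taken without a further pseudocount.

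A gene was tested if 3 or more of the 10 libraries that the study used reached 1 CPM. Limma 3.58.1 (R 4.3.3) fitted 3 group means, with eBayes, a variance trend and two-sided tests. P-values were adjusted by Benjamini-Hochberg across the 12889 genes, and 0.05 was the threshold. The sources used here give no reason for leaving out mAM_KO replicate 4. Recovered reads were analysed by edgeR 4.0.16 (quasi-likelihood), DESeq2 1.42.0 and limma-voom. Limma, limma-voom, edgeR and DESeq2 were each run on simulated counts with known fold changes in the design of the main fit. The other alternatives were not run on simulated counts. Gene positions, transcript lengths (median protein-coding transcript), GC content and shared 60-base windows come from GENCODE vM21, which holds 12919 of the genes. Fold changes are on the log2(CPM) scale.

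The 48 members, the list of 81 other genes and the tests were chosen with earlier results of these data known. All members may be named. Values in every library are given for members called in RXR-deficient mAMs, up to 4 called members per role with the largest change in ImmAMs, the MiT/TFE factors and the d isoforms. From the other list, genes called in RXR-deficient mAMs and the 3 largest rises and falls in ImmAMs are named. Alternatives were other samples, filters, pseudocounts, scalings, variance models, tools and thresholds, a replicate block and each library left out, and, chosen after seeing the data, a lowess correction for GC content.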

Additional observations from a re-analysis of the deposited data

Results flagged for a closer look

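In the groups of 4 libraries (control mAMs, and RXR-deficient mAMs with replicate 4), each member was examined for a library far from the other 3, by the gap to its neighbour over the range of the group, against Dixon's 95% critical value. Of 96 such groups, 3 passed, where chance flags about 1 in 20. Gusb was at 429 CPM in control replicate 2, above 393 to 399 CPM in the other control libraries. Cln3 was at 99.5 CPM in RXR-deficient mAM replicate 3, below 111 to 114 CPM in the others. Glb1 was at 64.5 CPM in RXR-deficient mAM replicate 4, above 52.0 to 54.0 CPM in the others.

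RXR-deficient mAM replicate 4, which did not enter the tests, had 19 members above all 4 control libraries and 2 below them, where replicates 1 to 3 had 12, 6 and 15 above and 14, 13 and 13 below. Psap was the member of highest level among them, at 10707 CPM. Within its group, the deviation of this library from the group mean correlated with transcript GC content across 12919 genes (r = 0.32), as it did in control replicate 4 (r = 0.26). Genes are not independent replicates, and the part of base composition in these counts was not tested. The counts were not made over all genes, so they do not set the members apart from other genes.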

How the results depend on the processing

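The number of members called in ImmAMs against control mAMs (28) stayed between 27 and 33 under every alternative except a fold of at least 1.5, which left 5. Over all genes, the main fit called 6194 and the fold minimum 3438. The other alternatives called between 5527 (of 10374 tested, filter at 5 CPM) and 7165 (threshold of 0.1). In ImmAMs against RXR-deficient mAMs (24), the number of members stayed between 21 and 29 except for the same fold minimum, which left 3. Over all genes, the main fit called 4891 and the fold minimum 2800. The other alternatives called between 3894 (replicate block) and 5900 (threshold of 0.1). Leaving out a library gave 25 to 30 and 20 to 26 members, and 5027 to 6317 and 3971 to 5278 of all genes. No called member changed direction under any of the 18 alternatives of the fit or the 10 fits without a library. Of the 28 calls against control mAMs, 23 were kept in all of these fits, and of the 24 against RXR-deficient mAMs, 16. In RXR-deficient mAMs against control mAMs (1 member), DESeq2 called 5, robust eBayes and a filter at 5 CPM each called 3, and a threshold of 0.1 gave 6. Over all genes, the main fit called 624, DESeq2 1352, robust eBayes 713, the filter 691 (of 10374 tested) and the threshold 1454. No member was called under the fold minimum, with only the 2 groups compared, without a variance trend, with the replicate block or under the GC correction alone, with the block or with all 11 libraries (0 in each). These settings called 122 to 507 of all genes. Leaving out a library gave 0 to 3 members and 162 to 861 of all genes. The number of all genes called there fell from 624 to 337 with all 11 libraries and to 199 with only 2 groups, and the cause was not tested. Deviations of same-numbered libraries from their group means correlated between -0.13 and 0.26, and those of differently numbered libraries between -0.30 and 0.23. Control replicate 2 correlated best with mAM_KO replicate 4 (0.23). With so few libraries per group, these values cannot decide whether replicate numbers pair the libraries. The replicate block gave 0, 27 and 21 members in the 3 comparisons, and 174, 5686 and 3894 of all genes. It ended the calls of Galns in RXR-deficient mAMs (adjusted p = 0.093), Tfe3 in ImmAMs against control mAMs (0.092), and Atp6v0d2 (0.061), Atp6v1e1 (0.12) and Atp6v1h (0.14) in ImmAMs against RXR-deficient mAMs. In libraries of 16659960 to 37873532 reads, depth limits Sgsh most, with 19 to 44 reads in the mAM libraries tested.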
